A study of Homo sapiens with 6 samples.

Results

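The serine and one-carbon folate enzymes examined here were 9 genes, PHGDH, PSAT1, PSPH, SHMT1, SHMT2, MTHFD1, MTHFD2, MTHFD1L and ALDH1L2, taken by name from a table of 58302 genes. The table holds RNA sequencing of the human line MDA-MB-231-DR, a doxorubicin-resistant form of MDA-MB-231, which is a triple-negative breast cancer line. Untreated MDA-MB-231-DR cells gave 3 libraries (control), and cells treated with CYT, the sesquiterpenoid cyperotundone, gave 3. Both groups therefore share the resistant background, which according to the study's methods is kept by culture with low-dose doxorubicin, and the dose and duration of CYT for these libraries are not given in the sources used here. It is 1 cell line, named MDA-MB-231-DR in the sample titles and MDA-MB-231 in the labels' cell line field. No parental library was analysed here, so the values describe CYT treatment of resistant cells and not resistance itself. The study's statistics section speaks of independent experiments for its data in general, but neither it nor the labels say that these 3 libraries of a group came from separate cultures, and p-values then measure the spread between these libraries, which may be technical.

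Cells can make serine from the glycolytic intermediate phosphoglycerate in a short chain of reactions run by PHGDH, PSAT1 and PSPH. The serine hydroxymethyltransferases SHMT1, in the cytosol, and SHMT2, in mitochondria, then move a carbon unit from serine to tetrahydrofolate (THF) and release glycine. MTHFD1 in the cytosol and MTHFD2, MTHFD1L and ALDH1L2 in mitochondria oxidise or release this unit for purine and thymidylate synthesis, formate export and NADPH production, and several of these genes are known targets of the stress-induced transcription factor ATF4.

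After CYT treatment, 4 of the 8 enzymes that could be tested fell, and none rose. SHMT1 fell most, to 3.27-fold lower, followed by MTHFD1L (2.55-fold lower), PSPH (2.34-fold lower) and MTHFD1 (1.79-fold lower). PHGDH, PSAT1 and SHMT2 had lower means without passing the test, and MTHFD2 had similar means in both groups. The last enzyme, ALDH1L2, was nearly undetected in control libraries and had too few counts for the test. Raw counts of the 8 tested enzymes ran from 608 to 6707 in control libraries and from 187 to 3660 in CYT libraries.

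Raw counts were given to the quasi-likelihood test of edgeR, and levels are printed as CPM, counts scaled to a common library total with TMM factors. A gene was called when its adjusted p, by the Benjamini-Hochberg method over all 15572 tested genes, was under 0.05. By this rule 12.9% of all tested genes were lower, 15.7% were higher and 28.6% changed in either direction, so the 4 of 8 enzymes called lower are to be read against 12.9%. The enzymes' median log2 fold change was -0.86, while that of all tested genes was 0.0064. In 5 enzymes no CYT library reached the lowest control library, a separation that held for 22.7% of all tested genes. In bulk RNA, fewer transcripts per cell and fewer cells carrying them cannot be told apart.

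Control libraries held 14050849 to 17770102 counts and CYT libraries 13056270 to 14106017, and the biological coefficient of variation was 37.5%. Across genes, the log2 CPM of libraries of a group had r between 0.904 and 0.971, and both pairs with CYT replicate 2 were the lowest. Mitochondrial ribosomal RNA took 0.148% to 0.221% of control counts and 1.56% to 1.74% of CYT counts, and antisense and long intergenic RNA genes took 0.461% to 0.540% and 0.938% to 1.01%. Of the markers of the line's mesenchymal state, VIM ran from 911 to 2742 CPM over all libraries, ESR1 and PGR were at 0.238 CPM or less, and CD3E and DCN were at 0 counts in every library. Summed CPM in control and CYT libraries was 4223 to 5600 and 2544 to 3119 for the 6 mesenchymal markers. It was 218 to 430 and 32.5 to 57.3 for 6 luminal markers (most of it KRT19, with means of 287 and 26.3 CPM, while the median log2 fold change of the 4 tested was -0.15), 19.1 to 35.8 and 4.34 to 6.14 for 4 fibroblast markers, 0.213 to 1.37 and 4.05 to 4.34 for 4 haematopoietic markers, and 1.55 to 3.31 and 1.83 to 3.50 for 3 endothelial markers. The part of these differences in the enzymes' values was not tested.

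**Figure D1:**
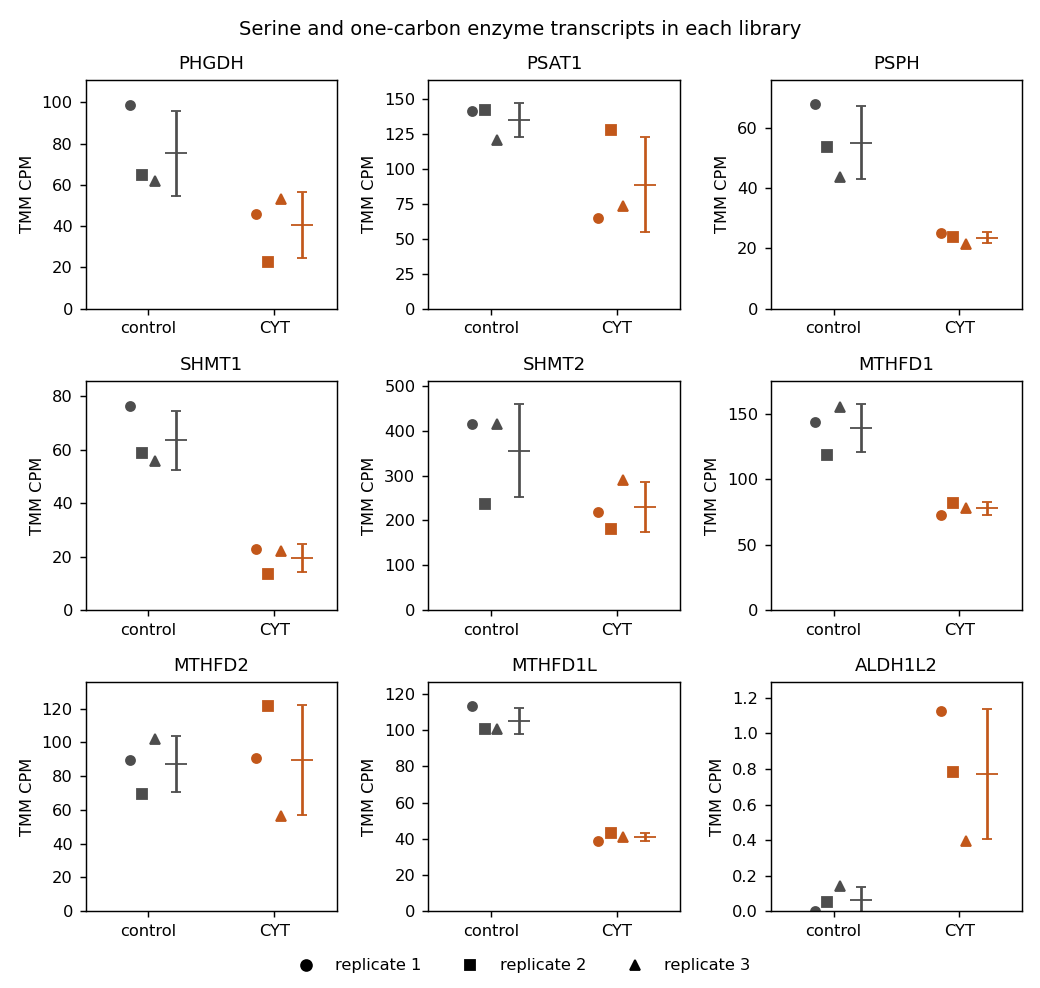
TMM-scaled CPM (vertical axes, each from 0) of the 9 enzymes in the 3 control and 3 CYT libraries, with symbols for replicate numbers and bars for the mean ± SD of each group. The CYT libraries of MTHFD1L sit between 38.9 and 43.3 CPM and all control libraries at 100.7 or more, whereas the groups of PSAT1, SHMT2 and MTHFD2 overlap.

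PHGDH (ENSG00000092621, chr1:119648411-119744226 in hg38, plus strand) encodes phosphoglycerate dehydrogenase, which opens the serine pathway. Control replicates 1 to 3 held 98.9, 64.9 and 62.0 CPM, against 46.0, 22.8 and 53.2 CPM in CYT replicates 1 to 3. All 3 CYT libraries were below all control libraries, with the lowest value in CYT replicate 2. The log2 fold change of -0.89 (standard error, SE, 0.38) did not pass the test (adjusted p = 0.109 from edgeR). With the replicate number as a block, the change was -0.95 and PHGDH was called lower (adjusted p = 0.0325 from edgeR), a fit in which 19.8% of all tested genes were lower.

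PSAT1 (ENSG00000135069, chr9:78297143-78330093, plus strand) is the aminotransferase of the next step. Control replicates 1 to 3 had 141.5, 142.5 and 120.9 CPM, and CYT replicates 1 to 3 had 64.8, 127.9 and 73.9 CPM. CYT replicates 1 and 3 were well below the controls, while CYT replicate 2 lay within the control range. The log2 fold change was -0.60 (SE 0.33, 95% confidence interval -1.34 to 0.13), with an adjusted p of 0.198 from edgeR. Without CYT replicate 2, PSAT1 was called lower, at -0.97 (adjusted p = 0.0143 from edgeR).

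PSPH (ENSG00000146733, chr7:56011051-56051604, minus strand), the phosphatase that releases free serine, was the serine-synthesis gene called lower in the main fit. PHGDH and PSAT1 had lower means as well, and differences between these genes were not tested. Control replicates 1 to 3 stood at 68.0, 53.6 and 43.7 CPM, and CYT replicates 1 to 3 at 25.1, 23.8 and 21.6 CPM. The groups did not overlap, and the CYT libraries were close to each other, at 23.5 ± 1.77 CPM (SD, n = 3). PSPH fell by 1.23 on the log2 scale (SE 0.30, adjusted p = 0.0136 from edgeR). The call was lost without control replicate 1 (adjusted p = 0.0595 from edgeR) and without CYT replicate 3 (adjusted p = 0.0579 from edgeR). The pseudogene PSPHP1, a copy of PSPH, had 32 to 87 counts per library, and how reads matching both were assigned is not given in the sources used here.

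SHMT1 (ENSG00000176974, chr17:18327860-18363563, minus strand), the cytosolic serine hydroxymethyltransferase, had the lowest fold change of the 8 tested enzymes. It stood at 76.1, 58.6 and 55.6 CPM in control replicates 1 to 3 and at 22.7, 13.3 and 22.2 CPM in CYT replicates 1 to 3. The highest CYT library was under the lowest control library by a wide margin. SHMT1 fell by 1.71 on the log2 scale (SE 0.33, 95% confidence interval -2.45 to -0.97, adjusted p = 0.00490 from edgeR), and it was called lower in all 16 alternative fits. The gene shares 196 of 7281 exonic bases with SMCR8 on the opposite strand, whose raw counts were 299 to 426 in control and 719 to 825 in CYT libraries. The use of strand in counting is not given in the sources used here.

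SHMT2 (ENSG00000182199, chr12:57229327-57234935, plus strand), the mitochondrial form, was the enzyme with the highest CPM. It was measured at 415.8, 236.4 and 414.9 CPM in control replicates 1 to 3 and at 218.8, 181.9 and 290.8 CPM in CYT replicates 1 to 3. Control replicate 2 fell inside the CYT range, so the groups overlapped. The log2 fold change was -0.63 (SE 0.33, 95% confidence interval -1.36 to 0.11, adjusted p = 0.180 from edgeR), and SHMT2 was called in 0 of the 16 alternative fits.

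MTHFD1 (ENSG00000100714, chr14:64388031-64463457, plus strand) is the cytosolic enzyme that interconverts methylene-, methenyl- and formyl-THF and joins formate to THF. It had 143.9, 118.6 and 155.1 CPM in control replicates 1 to 3 and 72.8, 82.1 and 78.1 CPM in CYT replicates 1 to 3. The groups did not overlap, and the CYT libraries had a mean of 77.7 ± 4.69 CPM (SD, n = 3) against 139.2 ± 18.7 CPM (SD, n = 3). MTHFD1 fell by 0.84 on the log2 scale (SE 0.27, adjusted p = 0.0435 from edgeR). This call was near the threshold and was lost in 9 of 16 alternative fits. Among them were 5 of the 6 that left out a library, with adjusted p from 0.0577 (without control replicate 2) to 0.150 (without control replicate 3) in edgeR. It was kept without CYT replicate 2 (adjusted p = 0.0216 from edgeR).

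MTHFD2 (ENSG00000065911, chr2:74198562-74217565, plus strand), the mitochondrial methylene-THF dehydrogenase and cyclohydrolase, showed no common direction. Control replicates 1 to 3 stood at 89.6, 69.5 and 102.2 CPM, and CYT replicates 1 to 3 at 91.1, 121.6 and 56.7 CPM. The highest and the lowest of the 6 values were both CYT libraries. The log2 fold change of 0.04 had a 95% confidence interval from -0.73 to 0.82 (adjusted p = 0.939 from edgeR), which includes changes of either sign. The sign turned in 6 of 16 alternative fits, among them those without control replicate 2 (-0.12) and without CYT replicate 2 (-0.24). MTHFD2 shares 1324 of 4870 exonic bases with SLC4A5 on the opposite strand, which had at most 18 counts in any library.

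MTHFD1L (ENSG00000120254, chr6:150865549-151101887, plus strand), the mitochondrial ligase that works with formate and THF, had the smallest SD relative to its mean of the 8 tested enzymes, in both groups. Control replicates 1 to 3 had 113.3, 100.8 and 100.7 CPM, and CYT replicates 1 to 3 had 38.9, 43.3 and 41.2 CPM. Each CYT library was under the lowest control library. MTHFD1L fell by 1.35 on the log2 scale (SE 0.27, 95% confidence interval -1.95 to -0.75, adjusted p = 0.00571 from edgeR), and it was called lower in all 16 alternative fits.

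ALDH1L2 (ENSG00000136010, chr12:105019784-105084577, minus strand), the mitochondrial formyl-THF dehydrogenase that yields NADPH, was too low for the count filter. Control replicates 1 to 3 had 0, 1 and 2 raw counts, and CYT replicates 1 to 3 had 16, 11 and 5. Every CYT library had more counts than every control library, but all values were below those of any other enzyme. Summed over each group and divided by total counts, ALDH1L2 was 12.9 times as frequent in CYT libraries, with a 95% interval from 4.04 to 66.0. This exact binomial interval covers counting error only, not the spread between libraries. Without the filter, edgeR gave a log2 fold change of 3.38 (SE 1.07, adjusted p = 0.0353 from edgeR), a fitted value that depends on the prior count and is no bound. In 4 filtered fits that each left out a library, the gene passed the filter only through its CYT counts, so their calls are no support. There its log2 fold change ran from 2.91 (without control replicate 1) to 4.40 (without control replicate 3), and it was not called without control replicate 1 (adjusted p = 0.0711 from edgeR) or control replicate 2 (adjusted p = 0.0669 from edgeR). It shares 145 of 8507 exonic bases with C12orf45 on the opposite strand, which had 152 to 451 counts per library.

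**Figure D2:**
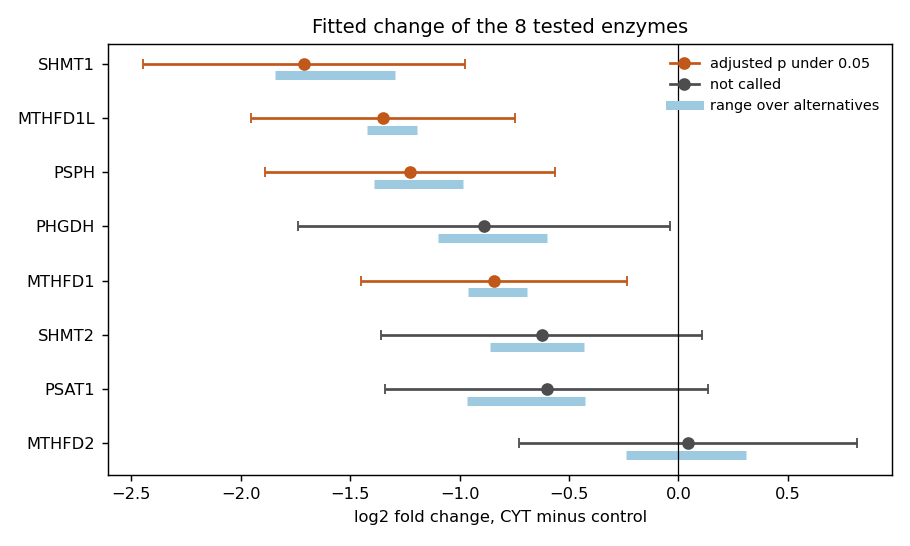
Log2 fold change of CYT against control (horizontal axis) for the 8 tested enzymes from edgeR, with bars for the 95% confidence interval and blue bands for the range over the alternative fits. SHMT1, MTHFD1L, PSPH and MTHFD1 were called lower, and the interval of MTHFD2, from -0.73 to 0.82, crosses 0.

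The fold changes of PHGDH, PSAT1, PSPH, SHMT1, SHMT2, MTHFD1 and MTHFD1L were negative in all 16 alternative fits, including upper-quartile scaling and DESeq2, in which the median of all tested genes was 0.16 and 0.18. Leaving out control replicate 1 lowered the number of enzymes called to 2, SHMT1 and MTHFD1L, and in that fit 7.41% of all tested genes were called lower. The same 2 enzymes were the ones called lower without CYT replicate 3, where 7.63% of all tested genes were lower. ALDH1L2 was called higher there, having passed the filter only through its CYT counts.

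Levels of different enzymes were compared per transcript length, as deposited FPKM. In control libraries PSAT1 was highest at 50.3 ± 5.88 FPKM (SD, n = 3), followed by SHMT2 at 19.4 ± 4.83 and MTHFD1L at 14.3 ± 0.504. MTHFD1 at 11.5 ± 1.21, MTHFD2 at 9.05 ± 1.48, PSPH at 7.51 ± 1.40 and SHMT1 at 5.88 ± 0.737 FPKM came next, and the ranges of each neighbouring pair among these 4 overlapped, as did those of SHMT2 and MTHFD1L. PHGDH was at 3.78 ± 0.818 FPKM, below the range of SHMT1, and ALDH1L2 was at 0.00463 FPKM.

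In CYT libraries PSAT1 was again highest at 34.1 ± 15.3 FPKM (SD, n = 3) and SHMT2 next at 12.8 ± 2.19. MTHFD2 stood at 9.67 ± 4.10, MTHFD1 at 6.52 ± 0.731 and MTHFD1L at 5.70 ± 0.612 FPKM, so MTHFD1L moved from above MTHFD2 and MTHFD1 in the order of means to below both. The ranges of MTHFD2 overlapped those of SHMT2, MTHFD1 and MTHFD1L, and those of MTHFD1 and MTHFD1L overlapped too. PSPH was at 3.28 ± 0.415, PHGDH at 2.06 ± 0.703 and SHMT1 at 1.81 ± 0.417 FPKM, and the ranges of PHGDH and SHMT1 overlapped. ALDH1L2 was lowest at 0.0548 FPKM.

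Where a cytosolic and a mitochondrial enzyme act on the same step, their counts were set against each other within each library, which does not depend on library size. The log2 ratio of SHMT2 to SHMT1 was 2.45, 2.01 and 2.90 in the control libraries, by replicate, and 3.27, 3.77 and 3.71 in the CYT libraries. All CYT values were above all control values, and the mean difference of 1.13 corresponds to a 2.19-fold higher ratio. The log2 ratio of MTHFD2 to MTHFD1 was -0.68, -0.77 and -0.60 in control and 0.32, 0.57 and -0.46 in CYT replicates 1 to 3. Here too the groups did not overlap, with a mean difference of 0.83, but CYT replicate 3 was close to the control values.

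The log2 ratio of MTHFD1L to MTHFD1 went the other way. It was -0.35, -0.23 and -0.62 in control and -0.90, -0.92 and -0.92 in CYT replicates 1 to 3, a mean difference of -0.52. Each of the 3 ratios had an exact two-sided permutation p of 0.1, the smallest that 3 libraries against 3 allow, so none could pass a threshold of 0.05.

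**Figure D3:**
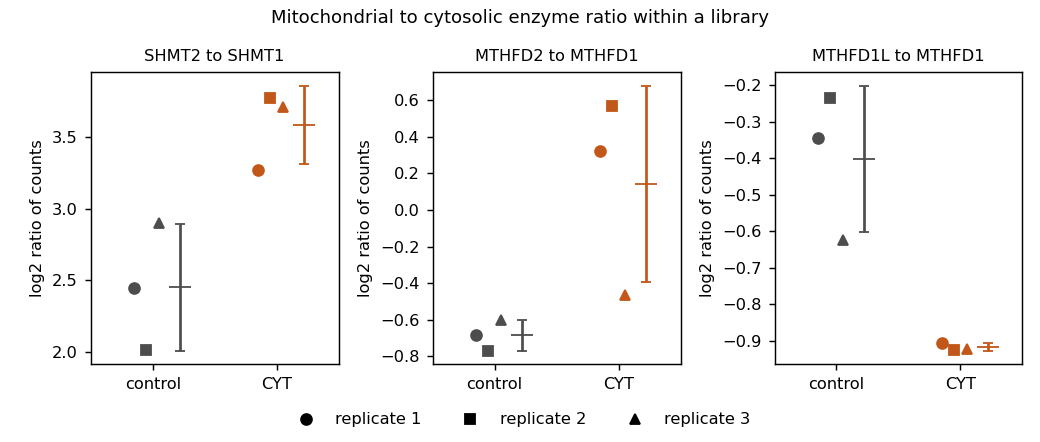
Log2 ratio of counts of a mitochondrial to a cytosolic enzyme within each library (vertical axes, which differ between panels), with the mean ± SD of each group. CYT libraries lie above control for SHMT2 to SHMT1 and MTHFD2 to MTHFD1, and below control for MTHFD1L to MTHFD1.

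Because several of these genes are known ATF4 targets, the promoters were searched on both strands for TGATGNAA, a core of the sites bound by C/EBP and ATF factors, and for CACGTG, the E-box read by MYC and related factors. RefSeq promoter windows (GRCh38.p14, 250 bases before to 50 after the start) were matched for 6 of the 9 enzymes. Of all 35114 such windows, 3.62% held the first motif and 7.26% the second. PSPH, SHMT2 and ALDH1L2 had no window and were not searched. All matches among the 6 enzymes are printed, and they lie in MTHFD1 and MTHFD1L, while SHMT1, which fell most, held neither motif. Capitals mark the motif, and each line reads 5′ to 3′ on the plus strand.
MTHFD1L, C/EBP and ATF core: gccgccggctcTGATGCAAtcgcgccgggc
MTHFD1L, E-box: cacgcccggctcCACGTGcgcagccggccg
MTHFD1, E-box: ccagtccctaagCACGTGggttgggttgtc

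The first window is chr6:150866346-150866375, with the motif at -129 from the start, the second is chr6:150866320-150866349, with the motif at -154, and the last is chr14:64388326-64388355, with the motif at -15. In GENCODE 29 the matches lie within exons of other transcripts of MTHFD1L and MTHFD1. The windows of PHGDH, PSAT1, SHMT1 and MTHFD2 held neither motif in these letters. These are matches of letters and not evidence of binding.

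Of 64 genes on 5 lists of neighbouring reactions and regulators, 54 were tested, of which 10 were called lower and 8 higher, with a median log2 fold change of -0.06. The share called, 18 of 54, is to be read against 28.6% of all tested genes. It was 11 without control replicate 1, without control replicate 2 or without CYT replicate 3, fits in which 18.3%, 23.3% and 19.8% of all tested genes were called.

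Of 18 genes of the folate cycle and folate handling, 13 were tested, 3 fell and 2 rose, with a median of -0.43. SLC46A1, the proton-coupled folate carrier, fell by 1.84 on the log2 scale (adjusted p = 0.00250 from edgeR). ATIC, which completes purine ring synthesis with a formyl group from THF, fell by 1.55 (adjusted p = 0.00392 from edgeR). MTHFS, which returns folinic acid to the active pool, fell by 1.45 (adjusted p = 0.0321 from edgeR), a call that was lost in 4 of 6 fits that left out a library, with adjusted p from 0.0652 (without control replicate 3) to 0.0928 (without CYT replicate 1).

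GGH, which trims glutamates from folates, rose by 1.31 (adjusted p = 0.0435 from edgeR) and was named after its value was seen. Its call was kept without CYT replicate 1 and lost in the other 5 fits that left out a library, with adjusted p from 0.0577 to 0.146 in edgeR, and the log2 fold change was 0.72 without CYT replicate 2.

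TYMS, the thymidylate synthase that uses methylene-THF, had a log2 fold change of 0.38 (adjusted p = 0.292 from edgeR) and shares 967 of 2470 exonic bases with ENOSF1 on the opposite strand. MTHFD2L, the close relative of MTHFD2, was at 0.29 (adjusted p = 0.587 from edgeR). Neither passed the test.

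Of the 4 glycine cleavage genes, 1 fell and none rose, with a median of -0.83. Some of them had at most 24 counts in any library, and the median rests partly on these. The share called is to be read against 28.6% of all tested genes. GCSH, the carrier protein of that complex, fell by 1.24 on the log2 scale (adjusted p = 0.0282 from edgeR). Its call was lost without control replicates 1 (adjusted p = 0.0998) or 2 (0.0553) and without CYT replicates 1 (0.0963) or 3 (0.0657), all from edgeR.

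Of the 12 genes for carriers and users of serine, all tested, 2 fell and 3 rose, with a median of 0.25. SRR, serine racemase, rose by 1.93 (adjusted p = 0.00220 from edgeR), and PTDSS1, a phosphatidylserine synthase, rose by 1.64 on the log2 scale (adjusted p = 0.00280 from edgeR). SPTLC1, a subunit of the enzyme that starts sphingolipid synthesis from serine, rose by 0.94 (adjusted p = 0.0428 from edgeR) and was named after its value was seen. Its call was kept without CYT replicate 2 and lost without any other 1 library (adjusted p from 0.0651 to 0.133 in edgeR). SFXN1, a carrier of serine into mitochondria, fell by 1.13 (adjusted p = 0.0290 from edgeR), and its relative SFXN3 fell by 1.55 (adjusted p = 0.00551 from edgeR). The SFXN1 call was lost in 5 of 6 fits that left out a library, with adjusted p from 0.0553 (without control replicate 1) to 0.111 (without CYT replicate 3), and was kept without CYT replicate 2.

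Of 13 genes of the methionine cycle and transsulfuration, 9 were tested, 1 fell and none rose, with a median of -0.29. MAT2A, which makes S-adenosylmethionine, had 269.5, 285.7 and 299.7 CPM in control replicates 1 to 3 and 97.9, 80.8 and 70.8 CPM in CYT replicates 1 to 3. The groups were far apart, and MAT2A fell by 1.78 on the log2 scale (SE 0.28, adjusted p = 0.00210 from edgeR). It shares 558 of 4487 exonic bases with GGCX on the opposite strand, which had 865 to 1480 counts per library.

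Of 17 genes for ATF4 and amino acid response targets outside the 9 enzymes, 16 were tested, 3 fell and 3 rose, with a median of 0.11. ATF4 itself was at 386.7, 223 and 406.8 CPM in control replicates 1 to 3 and at 102.5, 67.3 and 80.5 CPM in CYT replicates 1 to 3. The groups did not overlap, and ATF4 transcripts fell by 2.02 on the log2 scale (SE 0.34, adjusted p = 0.00269 from edgeR). Its copy ATF4P3 had 102 to 167 counts in control and 14 to 30 in CYT libraries. ATF4 is largely regulated in translation, which these libraries do not measure.

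CHAC1, a glutathione-degrading enzyme, fell by 2.36 on the log2 scale (adjusted p = 0.0175 from edgeR), a call lost without control replicate 1 (log2 fold change -1.50, adjusted p = 0.0670) and without CYT replicate 3 (0.0549). TRIB3, a pseudokinase, fell by 1.32 (adjusted p = 0.0279 from edgeR). The stress transcription factors ATF3 and DDIT3 rose, by 2.87 (adjusted p = 0.00349 from edgeR) and 2.17 (adjusted p = 0.00129 from edgeR). Without CYT replicate 2, ATF3 rose by 2.19. PCK2, a mitochondrial enzyme of phosphoenolpyruvate synthesis, rose by 1.28 (adjusted p = 0.0284 from edgeR), and like TRIB3 it was named after its value was seen. The call of TRIB3 was kept without CYT replicate 1 or 2 and lost without any other 1 library (adjusted p from 0.0579 to 0.0827 in edgeR). That of PCK2 was kept without CYT replicate 2 alone (adjusted p from 0.0686 to 0.112 otherwise, in edgeR).

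**Figure D4:**
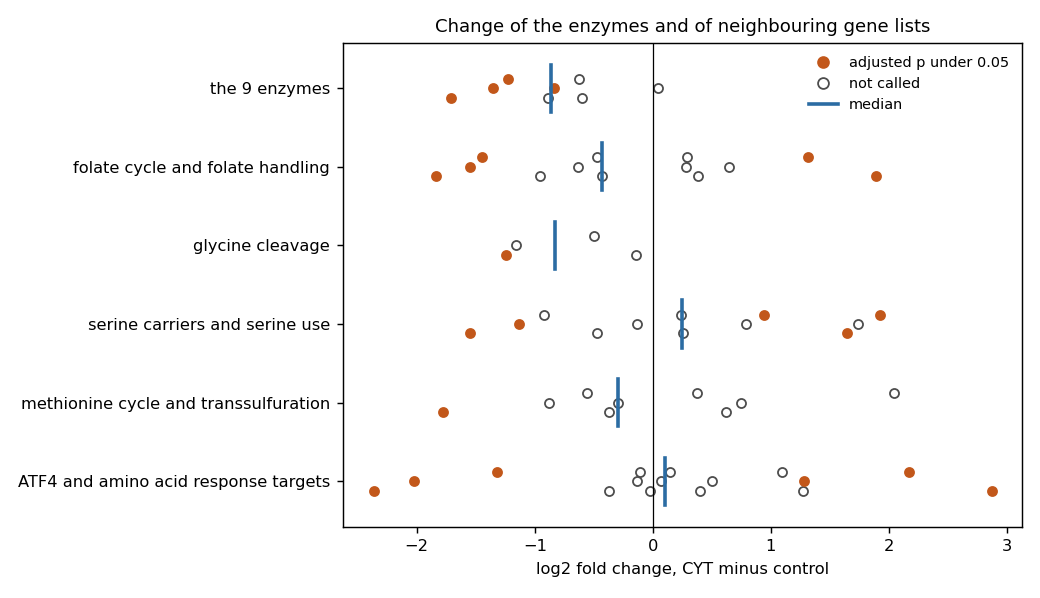
Log2 fold change of CYT against control (horizontal axis) of each tested gene of the 9 enzymes and 5 neighbouring lists, with filled points for adjusted p under 0.05 in edgeR and a bar at each list's median. The enzymes have 4 filled points, all below 0, whereas the folate, serine-use and ATF4 lists have filled points on both sides.

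Genes with a profile like that of PHGDH and MTHFD2, both without a call, were ranked by the root mean square difference of centred log2 CPM over the 6 libraries, among 11416 genes. Closest to PHGDH were PLXNA1 (0.0576), TBRG4 (0.0627) and SEMA4B (0.0746). Closest to MTHFD2 were CNTRL (0.0876), SNX5 (0.123) and ASCC1 (0.137). The points share libraries, so these are descriptions of similar profiles.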

How the data were processed

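The authors deposited raw counts per gene, from clean reads aligned with Hisat2, and FPKM, for which the methods name Stringtie. The submitters' processing notes name the build hg38 and FastQC 0.12.1. The counting program, its annotation and its use of strand are not given in the sources used here. Counts of 3 control and 3 CYT libraries were tested with edgeR 4.0.16 in R 4.3.3 (TMM, filterByExpr with a minimum count of 10, quasi-likelihood test of CYT against control, Benjamini-Hochberg adjustment). CPM are TMM-scaled, and each count had 0.5 added in ratios. Every pair of libraries of a group differed by more than sampling noise. The tests were checked on simulated counts.

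The enzymes, gene lists and tests were chosen with earlier results of these data known. By the rule for named genes these are the 9 enzymes, up to 4 called genes per list with the largest absolute log2 fold change, and MTHFD2L, TYMS and ATF4. Some genes that the rule or the lists take in are not reported here. Alternatives were DESeq2 1.42.0, upper-quartile scaling, the table unfiltered, only genes averaging 5 CPM or more, limma 3.58.1 on log2(FPKM + 1) and log2(FPKM + 0.1) with a mean FPKM of at least 0.1, robust dispersion, a replicate block, an absolute log2 fold change over 1, and fits without 1 library each. Offsets that correct for GC content and transcript length, alone or with the block, were an alternative chosen after seeing the data.

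Same-numbered libraries of the labels deviated from their group means together across genes (r = 0.188, 0.458 and 0.124 for replicates 1, 2 and 3). However, control replicate 1 had a higher r with CYT replicate 3 (0.303) than with CYT replicate 1. Control replicate 3 likewise had a higher r with CYT replicate 1 (0.201) than with CYT replicate 3. Pairing by number is therefore not established, and the main fit used no block. With the block, 5 enzymes were called lower, in a fit that called 39.9% of all tested genes.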

Additional observations from a re-analysis of the deposited data

How the results depend on the processing

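SHMT1, MTHFD1L, ATF4, MAT2A, ATIC, SLC46A1, SFXN3, SRR, PTDSS1, DDIT3 and ATF3 kept their direction and call in all 16 alternative fits. Leaving out a library gave 2 to 5 enzymes and 11 to 22 pathway genes called, in fits that called 17.6% to 35.6% of all tested genes, and offsets for GC content and length, an alternative chosen after seeing the data, gave 29 pathway genes against 46.2% of all tested genes. MTHFD2 turned to -0.035 without the filter, -0.0046 with the replicate block, -0.056 with the GC and length correction and -0.025 with both, and ran from -0.24 to 0.31 when a library was left out. MTHFD2L ran from -0.047 to 0.52 in the same fits. Of the genes named, the replicate block changed the call of PHGDH alone (-0.95, adjusted p = 0.0325 from edgeR). With the GC and length correction PHGDH (-0.87, adjusted p = 0.0241 from edgeR) and PSAT1 (-0.80, adjusted p = 0.00919 from edgeR) were called. The causes were not tested. The mean differences of the 3 ratios kept their direction with FPKM and without any 1 library. With 3 libraries a group and a coefficient of variation of 37.5%, the changes of PSAT1 and SHMT2 had intervals that include 0 in the main fit. With the replicate block they were -0.66 (SE 0.27, adjusted p = 0.0779 from edgeR) and -0.61 (SE 0.24, adjusted p = 0.0771 from edgeR), not called, with each CYT library below the control library of its number. ALDH1L2 is limited by its low counts and by a spread between libraries that its counting interval leaves out.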
